A study of Mus musculus with 8 samples.

Results

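Enzymes and proteins that remove reactive oxygen species or use glutathione were followed in the epididymal fat of 4 mouse lines. The set comprised superoxide dismutases, catalase, glutathione peroxidases, peroxiredoxins, thioredoxins and their reductases, the enzymes of glutathione synthesis, glutathione S-transferases, metallothioneins, heme oxygenases and Nqo1. It was chosen by a rule on gene symbols, but with earlier results of these data known. Gpx5, a peroxidase of the epididymis, was left out and served as a marker of male-tract tissue. The rule found 35 genes with 43 probe sets, among 6137 named genes and 13069 probe sets compared in all.

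DU6 is an outbred line selected for high body weight, and DU6i is an inbred line derived from it. DBA is an inbred strain, and DUKs is an unselected control line. These descriptions are general knowledge, and the labels give only the line names, with selected lines, adiposity, diabetes, insulin and leptin as keywords. Each line was represented by 1 RNA pool from 20 males aged 42 days, hybridised to 1 array each of Affymetrix chips A and B, with no label naming a transgene or an agent. In the series title DU6 and DU6i stand opposite DUKs and DBA, so the pairs compared here were DU6 with DUKs and DU6i with DBA. A pair has 1 pool per line, so it has values and sizes but no test.

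Superoxide dismutases turn superoxide into hydrogen peroxide, which catalase, glutathione peroxidases and peroxiredoxins then remove. Glutathione peroxidases draw on glutathione and peroxiredoxins on thioredoxin, and glutathione S-transferases couple glutathione to reactive compounds. Metallothioneins bind zinc and copper, and heme oxygenases break down heme. Many of these genes are targets of the transcription factor Nrf2 (gene Nfe2l2), and fat tissue secretes the peroxidase Gpx3 and the dismutase Sod3.

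Values are scaled intensities as deposited, called signals here. A floor for low signals, taken per chip from the sizes of its negative signals (their 95th percentile), was 1023 on chip A and 2258 on chip B. Of the 43 probe sets, 31 were above the floor on all 4 arrays, 2 on 3 arrays, 1 on 2 arrays, 1 on 1 array and 8 on none. The genes under the floor on every array were Gpx1, Gstm3, Mt4, Nqo1 (both its probe sets) and Txnrd3, which left 30 genes with a measured signal. Gclc and Hmox1 each had 1 further probe set under the floor on every array, beside a measured set. By the maker's naming, 12 of the 43 probe sets (ending in _f_at) hold probes that related sequences share, among them those of Sod1, Gpx3, Gpx4, Gstp1, Prdx1, Prdx2, Txn1, Mt2 and 1 set of Mt1, so their signals can include that of relatives.

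The arrays differed in ways that touch these values. An array had 3045 to 3334 probe sets above the floor on chip A and 1639 to 1823 on chip B, and precision is limited by the number of arrays. The 99th percentile of signals on chip A was 18810 in DU6 and 34793 in DU6i, against 27552 in DUKs and 23450 in DBA, although the trimmed mean of every array was 2500. In the pyruvate carboxylase control the signal of a middle probe set (MB) was read as a share of the 3' signal. On chip A it was 15.3% in DU6 and 54.5% in DU6i, against 53.9% in DUKs and 19.5% in DBA. On chip B it was 12.7% in DU6 and 45.3% in DU6i, against 55.6% in DUKs and 14.3% in DBA. The other middle set (MA) gave -0.4% in DU6 and 19.6% in DU6i, against 13.3% in DUKs and -0.7% in DBA on chip A. Its chip B shares were -1.3% in DU6 and 20.4% in DU6i, against 22.4% in DUKs and 1.3% in DBA. Mature adipocyte markers were present, with 11 of 16 listed genes on the arrays and all 11 above the floor on at least 1 array. Adipoq, the adipocyte hormone adiponectin, had signals of 21044 in DU6 and 48251 in DU6i, against 36670 in DUKs and 28894 in DBA.

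Most of the enzymes lay within 2-fold in both pairs, and those beyond it were split between higher and lower. In DU6 vs DUKs, 4 of 34 probe sets were at least 2-fold higher, where 3.91% of all 5604 probe sets were, and 4 were at least 2-fold lower, where 6.3% of all were. The 4 higher were Sod1, Sod2, Gsto1 and Hmox1, and the 4 lower were both sets of Gstm5, Gpx4 and Hmox2. In DU6i vs DBA, 4 of 35 probe sets were at least 2-fold higher, against 4.79% of all 5556, and 3 were at least 2-fold lower, against 6.68%. The 4 higher were both sets of Sod3, Gstz1 and Gsto1, and the 3 lower were Mt1 (1 of its sets), Mt3 and Gstt2. Gsto1 was the 1 gene beyond 2-fold in both pairs. The median log2 ratio of the measured probe sets was -0.07 in DU6 vs DUKs (0.05 over all probe sets) and -0.05 in DU6i vs DBA (-0.03 over all).

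The SD of a single log2 ratio was 0.44 for DU6 vs DUKs and 0.34 for DU6i vs DBA, as derived from 346 and 348 genes with a pair of probe sets. This SD covers the disagreement between probe sets and not the spread between animals or pools. Rescaling each array to 1 median moved the median log2 ratio of all probe sets in DU6 vs DUKs to -0.06, against 0.05 as deposited. Of all calls at 2-fold, 38.3% were higher in DU6 vs DUKs and 26.3% after this rescaling, and 41.8% were higher in DU6i vs DBA and 52.2% after it. Some calls changed with the treatment of low signals or with the scaling. Those of Gpx4 (log2 -1.01) and Gstm5 set 1 (log2 -1.04) in DU6 vs DUKs lay close to the 2-fold cut. Taking log2 of signal plus floor left Gsto1 under 2-fold in DU6 vs DUKs (0.90) and DU6i vs DBA (0.97), and in DU6 vs DUKs also Sod2 (0.93), Hmox1 (0.94), Gpx4 (-0.96) and Gstm5 set 1 (-0.98). A doubled floor left Gstt2 (-0.10) and Mt1 set 1 (-0.86) under 2-fold in DU6i vs DBA, and quantile normalisation Gstm5 set 1 in DU6 vs DUKs (-0.91).

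The enzymes had no common order of the 4 lines. The median SD of log2 signal over the lines was 0.40 for the 31 probe sets above the floor on every array, against 0.32 for all 3974 such probe sets. DU6 held the highest signal for 6 of the 31 (19.4%, against 29% of all 3974) and the lowest for 9 (29%, against 19.4%). DU6i was highest for 9 (29%, against 25.3% of all) and lowest for 9 (29%, against 28.2%). DUKs was highest for 8 (25.8%, against 20.6%) and lowest for 6 (19.4%, against 29.1%). DBA was highest for 8 (25.8%, against 25.1%) and lowest for 7 (22.6%, against 23.4%). No line was on top for most of the enzymes, and the widest span among the 31 was 4.28-fold, between DU6i and DBA in Sod3 set 1.

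**Figure D1:**
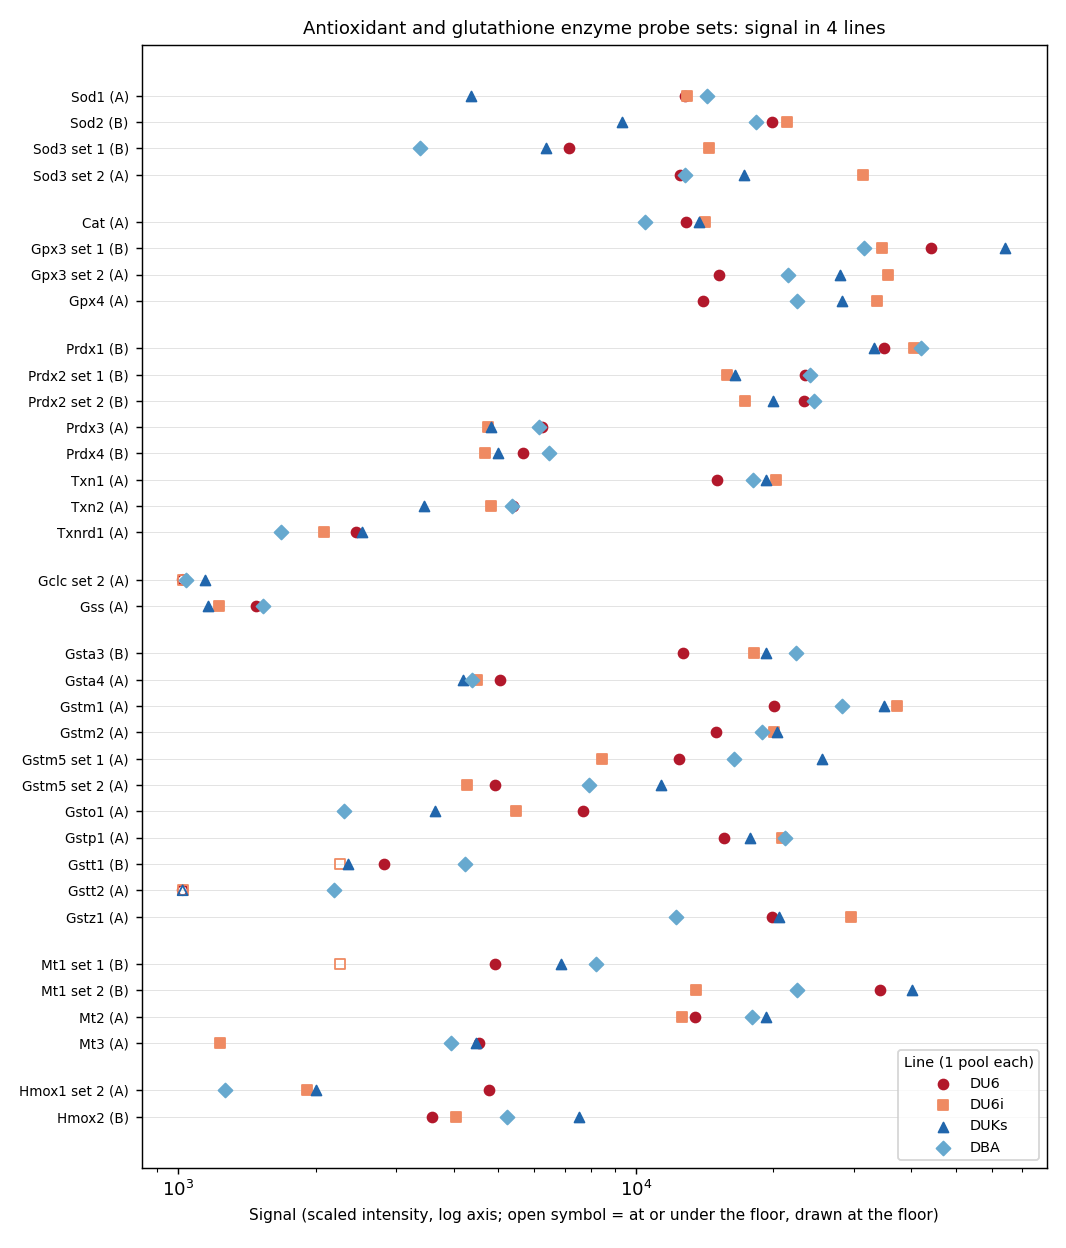
Signal of each probe set above the floor on at least 1 array, in DU6, DU6i, DUKs and DBA (log axis, scaled intensity, 1 pool per line, no error bars because there are no replicates); rows are grouped by role and the chip is in brackets. Sod1 and Sod2 have DUKs alone at the low end, Mt3 has DU6i alone at the low end, and Gsto1 has DU6 and DU6i above DUKs and DBA.

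The whole set of lines on each side was compared with limma, the only test the design allows, and none of the enzymes passed. With 2 lines per side, 0 of 34 probe sets had an adjusted p under 0.05 in limma (0% of all 5267 probe sets), and 4 of the 34 and 252 of the 5267 had an unadjusted p under 0.05. The lowest adjusted p among the enzymes was 0.978 in limma. Its spread is that between lines, and with 2 lines on each side the smallest p of an exact permutation test is 0.333. By position alone, 4 of the 34 had both DU6 lines above both other lines, where 16.8% of all probe sets did, and 7 had both below, where 13.3% did. With a gap of at least 1.5-fold between the nearest lines, Gsto1 was the 1 higher (1.44% of all probe sets) and a Gstm5 set the 1 lower (1.67% of all).

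Gsto1, the omega-class glutathione transferase that reduces dehydroascorbate and methylated arsenic, was higher in both DU6 lines. Its signal was 7665 in DU6 and 5479.7 in DU6i, against 3636 in DUKs and 2305 in DBA. The lowest DU6 line was 1.51-fold above the highest of the others. Gsto1 was 2.11-fold higher in DU6 than in DUKs (log2 1.08) and 2.38-fold higher in DU6i than in DBA (log2 1.25). In limma the mean log2 difference between the sides was 1.16, with an adjusted p of 0.978. Crossing the pairs gave a log2 ratio of 1.73 in DU6 vs DBA and 0.59 in DU6i vs DUKs, values that share arrays with the main pairs. Under both other scalings the ratio in DU6 vs DUKs was just under 2-fold, with log2 ratios of 0.97 after quantile normalisation and 0.94 after rescaling to 1 median.

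The mu-class transferase Gstm5, which is expressed in testis and brain, was lower in both DU6 lines on both of its probe sets. Set 1 (AA241764_s_at) gave signals of 12435 in DU6 and 8418 in DU6i, against 25594 in DUKs and 16376 in DBA. Set 2 (U24428_s_at) had 4931 in DU6 and 4275 in DU6i, against 11339 in DUKs and 7888 in DBA. On both sets the order of the lines was the same, with DUKs highest and DU6i lowest and no overlap between the sides. In DU6 vs DUKs set 1 was 2.06-fold and set 2 2.30-fold lower, and in DU6i vs DBA they were 1.95-fold and 1.85-fold lower. The gap between the nearest lines was 1.32-fold on set 1 and 1.60-fold on set 2. The mean log2 difference in limma was -1.04 on set 2, with an adjusted p of 0.978, and set 1 did not pass either.

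Germ cell markers moved with Gstm5. Of 15 listed genes 13 were on the arrays, all of them above the floor on at least 1 array, and their summed signal was 60442 in DU6 and 48945 in DU6i, against 279304 in DUKs and 117020.0 in DBA. Of the 8 markers above the floor on all 4 arrays, 8 were at least 2-fold lower in DU6 vs DUKs, with a median log2 ratio of -2.23, and 6 in DU6i vs DBA, with a median of -1.05. Ldhc, the lactate dehydrogenase of sperm cells, had signals of 3450 in DU6 and 2604 in DU6i, against 23076 in DUKs and 10134 in DBA. The part of germ cell RNA in the Gstm5 signal was not tested. In such bulk pools, fewer cells of a type and less RNA per cell cannot be told apart.

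The promoter of Gstm5 is shown because both probe sets of this gene placed both DU6 lines below both others. It lies at chr3:107895604-107895903 on the plus strand (RefSeq, GRCm38.p6) and runs from 250 bases before to 50 after the transcript start. Capitals mark matches on either strand to TGACNNNGC or TGAGNNNGC, forms of the antioxidant response element core that Nrf2 binds.
Gstm5: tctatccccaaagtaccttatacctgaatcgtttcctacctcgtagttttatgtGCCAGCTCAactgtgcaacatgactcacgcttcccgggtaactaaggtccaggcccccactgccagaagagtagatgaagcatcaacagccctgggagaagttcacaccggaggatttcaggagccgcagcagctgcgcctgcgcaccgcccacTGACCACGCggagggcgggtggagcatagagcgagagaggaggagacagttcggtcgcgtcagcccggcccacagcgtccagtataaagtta
The window held 2 matches, a number or more found in 4.68% of 32851 promoters of the same length, and at least 1 was found in 27.8%. Promoters were given for 30 of the 35 genes, with Gclc, Gsta4, Gstt2, Hmox1 and Sod3 without an entry, and 13 of the 30 held a match at a listed start, against 30.8% of all genes. A match describes letters and not a bound site.

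Other glutathione transferases differed less between the sides. Gstz1, the zeta-class enzyme of tyrosine breakdown, had signals of 19809 in DU6 and 29546 in DU6i, against 20612 in DUKs and 12271 in DBA. The high line was DU6i and the low line DBA, so that the ratio was 2.41-fold higher in DU6i than in DBA and close to 1 in DU6 vs DUKs (log2 -0.06). After quantile normalisation the log2 ratio was 0.92, under 2-fold, in DU6i vs DBA and 0.49 in DU6 vs DUKs. The theta-class Gstt2 cleared the floor only in DBA, with signals of 947 in DU6 and 267 in DU6i, against 951 in DUKs and 2188 in DBA. Its ratio in DU6i vs DBA was at least 2.14-fold lower. Of the male-tract markers given below, 5 also cleared the floor in DBA alone, and the part of such tissue in the Gstt2 signal was not tested. Gstt1 of the same class had 2824 in DU6 and 1420.3, under the floor, in DU6i, against 2353 in DUKs and 4239 in DBA.

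Apart from Gstm5, the measured transferases of the alpha, mu and pi classes stayed within 2-fold. Gstm1 had 20026 in DU6 and 37239.9 in DU6i, against 34849 in DUKs and 28206 in DBA, with a log2 ratio in DU6 vs DUKs of -0.80 and in DU6i vs DBA of 0.40. Gsta3 was lowest in DU6 with 12703 and had 18178 in DU6i, against 19279.8 in DUKs and 22366 in DBA. Gstm2, Gstp1 and Gsta4 had log2 ratios between -0.44 and 0.26 in both pairs. Gstm3, Gstm2 and Gstm1 lie next to each other on chromosome 3 in the RefSeq table of GRCm38.p6, and of these Gstm3 was under the floor on all 4 arrays.

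**Figure D2:**
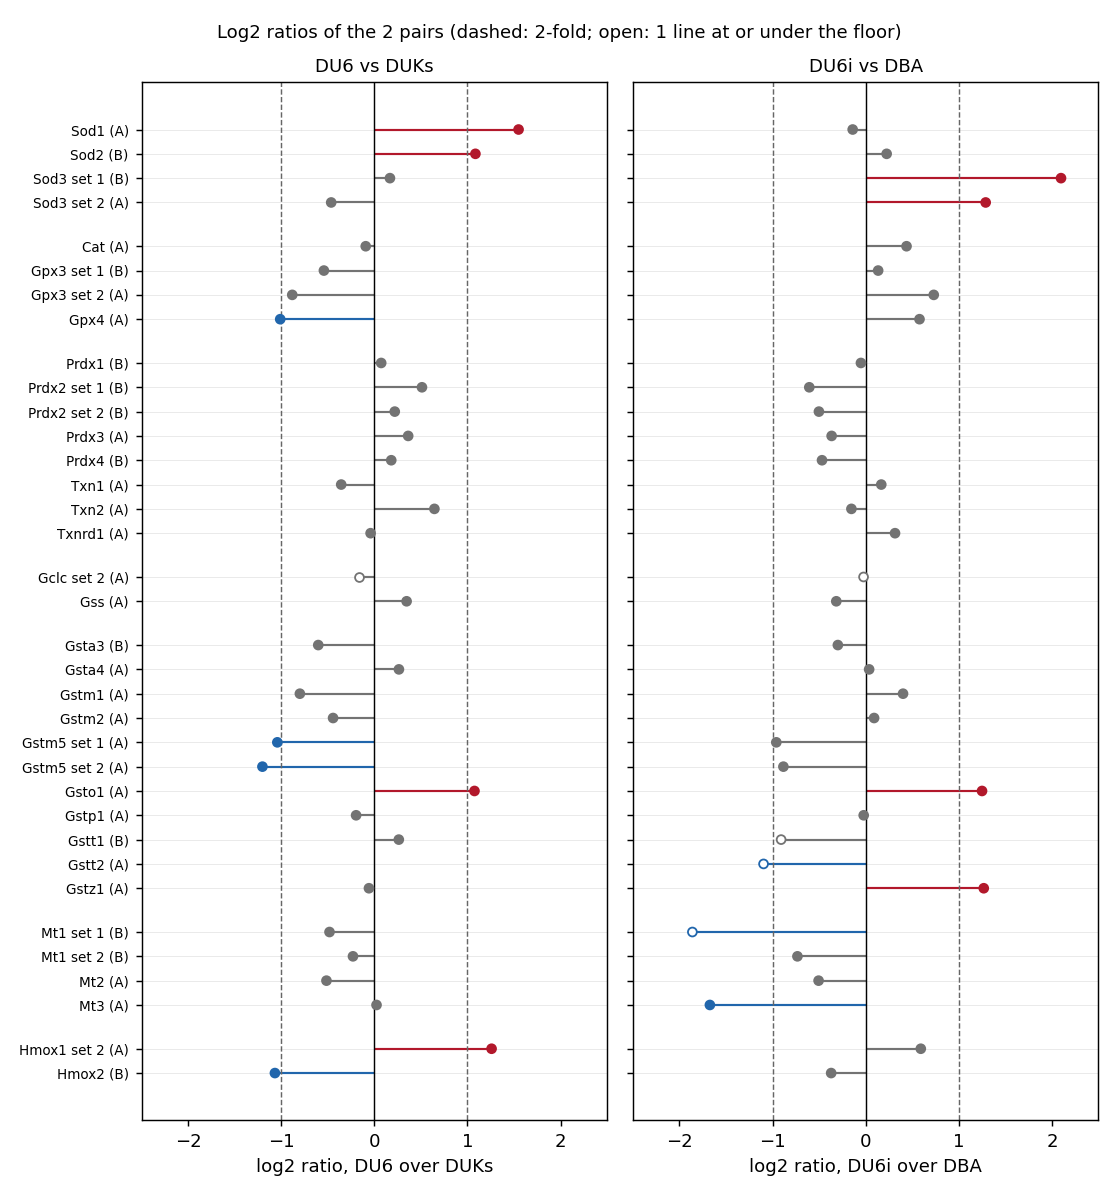
Log2 ratio of each probe set in DU6 over DUKs (left) and DU6i over DBA (right); dashed lines mark 2-fold, colour marks ratios beyond it, and open symbols have 1 line at or under the floor, so that they are bounds. Gsto1 is beyond the right dashed line in both panels, both Gstm5 sets lie near the left dashed line in both, and most rows lie between the lines.

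The superoxide dismutases each had a line that stood apart. Sod1, the copper and zinc enzyme of the cytosol, had signals of 12804 in DU6 and 12971 in DU6i, against 4375 in DUKs and 14293 in DBA. Here DUKs alone was low, and DBA was the highest of the 4 lines. Sod1 was thus 2.93-fold higher in DU6 than in DUKs (log2 1.55) and 1.10-fold lower in DU6i than in DBA (log2 -0.14). The sides overlapped, since DBA lay above both DU6 lines. The 2-fold difference in DU6 vs DUKs was present in all 5 processing settings tried for single ratios, with log2 ratios between 1.36 and 1.58.

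Sod2, the manganese enzyme of mitochondria, also had its lowest signal in DUKs. It was 19831 in DU6 and 21413 in DU6i, against 9342 in DUKs and 18322 in DBA, and the lowest DU6 line lay 1.08-fold above DBA. Sod2 was 2.12-fold higher in DU6 than in DUKs (log2 1.09) and 1.17-fold higher in DU6i than in DBA (log2 0.22). Both other scalings put the ratio in DU6 vs DUKs just under 2-fold, with a log2 ratio of 0.97 in each.

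Sod3, the secreted dismutase that binds the extracellular matrix, was highest in DU6i on both chips. Set 1 (chip B) had 7137 in DU6 and 14445 in DU6i, against 6352 in DUKs and 3376 in DBA. Set 2 (chip A) had 12485 in DU6 and 31305 in DU6i, against 17208 in DUKs and 12816 in DBA. DU6i stood apart on both sets, while DU6 lay near or below DUKs. In DU6i vs DBA Sod3 was 4.28-fold higher on set 1 (log2 2.10) and 2.44-fold higher on set 2 (log2 1.29), and in DU6 vs DUKs the log2 ratios were 0.17 and -0.46. After quantile normalisation the set 2 ratio in DU6i vs DBA was 0.90 on the log2 scale, under 2-fold, and that of set 1 was 2.15.

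**Figure D3:**
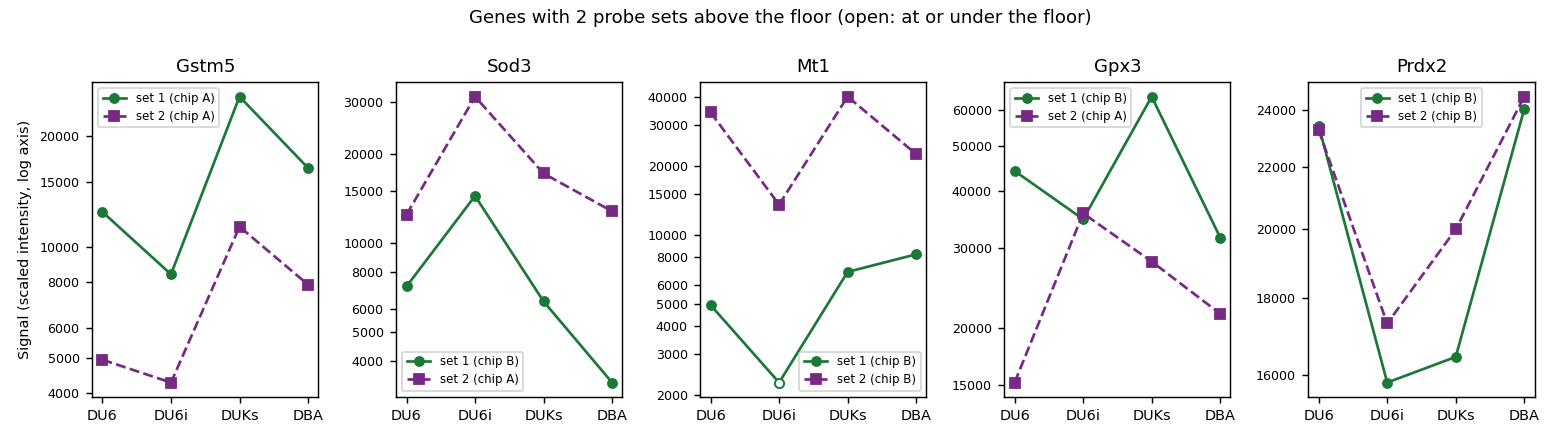
Signal in DU6, DU6i, DUKs and DBA (log axis, scaled intensity, 1 pool per line) of the 5 genes whose 2 probe sets both clear the floor on 2 or more arrays; open symbols are at or under the floor. The sets of Gstm5 run parallel with DUKs highest, those of Sod3 both peak in DU6i, those of Mt1 both dip in DU6i, and those of Gpx3 differ in which line is highest.

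Among the glutathione peroxidases, Gpx3 and Gpx4 were lower in DU6 than in DUKs. Gpx3, the secreted plasma peroxidase, had 44146 in DU6 and 34611 in DU6i, against 64239 in DUKs and 31549 in DBA on chip B. On chip A it had 15180.1 in DU6 and 35647 in DU6i, against 27959 in DUKs and 21482 in DBA. The sets disagreed on which line was highest, DUKs on chip B and DU6i on chip A. They agreed that Gpx3 was lower in DU6 than in DUKs and higher in DU6i than in DBA. On each chip the order of the lines for Gpx3 was that of the 99th percentile of the arrays. The log2 ratio in DU6 vs DUKs was -0.54 on chip B and -0.88 on chip A, and in DU6i vs DBA it was 0.13 and 0.73.

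Gpx4, which reduces lipid peroxides in membranes and is also abundant in sperm, was lower by 2.01-fold in DU6 vs DUKs. Its signals were 14028 in DU6 and 33646 in DU6i, against 28257 in DUKs and 22543 in DBA. DU6 was the lowest line and DU6i the highest, so the DU6 lines lay at the ends with the others between them. In DU6i vs DBA the log2 ratio was 0.58, which quantile normalisation brought to 0.01, and the ratio in DU6 vs DUKs was then -0.76, under 2-fold.

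The order DU6, DBA, DUKs, DU6i of Gpx4 was also that of the 99th percentile of the chip A arrays. Of 21 enzyme probe sets on chip A above the floor on all arrays, 5 had this order (Gpx3, Gpx4, Gstm1, Sod3 and Txn1), all 5 among the 12 with a mean signal over 10000. Over all chip A probe sets above the floor on all arrays 6.81% had it, and 28.5% of those with a mean signal over 10000. On chip B the order of the 99th percentile was DBA, DU6i, DU6, DUKs. Of 10 enzyme probe sets on chip B above the floor on all arrays, 1 (Gpx3) had that order. It was also that of 6.53% of all such chip B probe sets and 12.3% of those with a mean signal over 10000. The mature adipocyte markers had summed signals of 204042 in DU6 and 334134 in DU6i, against 270870.0 in DUKs and 196080.0 in DBA. The MB share of the pyruvate carboxylase control on chip A also had the order DU6, DBA, DUKs, DU6i (15.3%, 19.5%, 53.9% and 54.5%). The part of the signal range, of what this control measures or of adipocyte content in these values was not tested, and with 1 pool per line they cannot be told apart.

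Catalase, which splits hydrogen peroxide in peroxisomes, differed little. Cat had 12881 in DU6 and 14204 in DU6i, against 13730 in DUKs and 10482 in DBA, with a log2 ratio in DU6 vs DUKs of -0.09 and in DU6i vs DBA of 0.44. Gpx1, the main peroxidase of the cytosol, was under the floor on all arrays with its 1 probe set, so it gave no value.

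The peroxiredoxins and thioredoxins were all within 2-fold. Prdx1, a cytosolic enzyme, had signals of 34929.6 in DU6 and 40650.2 in DU6i, against 33184 in DUKs and 42120.3 in DBA. Prdx2, abundant in red blood cells, had 23441 in DU6 and 15803 in DU6i, against 16439 in DUKs and 24051 in DBA on set 1. On set 2 (x82067_f_at) it had 23280.1 in DU6 and 17303 in DU6i, against 19992 in DUKs and 24512 in DBA. Both sets placed DU6 and DBA above DU6i and DUKs, with log2 ratios of 0.51 and 0.22 in DU6 vs DUKs and of -0.61 and -0.50 in DU6i vs DBA. DU6 and DBA were also the lines with the low middle share in the pyruvate carboxylase control on both chips. Whether the 2 are linked was not tested. The erythrocyte markers shared no single order. Hba-a1, a globin gene, had 59306 in DU6 and 24005 in DU6i, against 73732 in DUKs and 21917 in DBA. Alas2, of heme synthesis, had 10549 in DU6 and 9294 in DU6i, against 7094 in DUKs and 9352 in DBA. For Alas2 DUKs was lowest and DU6i was level with DBA (log2 -0.01). Their part in the Prdx2 signal was not tested.

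The mitochondrial Prdx3 and the secretory-pathway Prdx4 also had DU6 and DBA above DU6i and DUKs, with log2 ratios between -0.47 and 0.36. The mitochondrial thioredoxin Txn2 was lowest in DUKs, with 5386 in DU6 and 4820 in DU6i, against 3443 in DUKs and 5362 in DBA, a log2 ratio of 0.65 in DU6 vs DUKs. Txn1, the cytosolic thioredoxin, had log2 ratios of -0.36 (DU6 vs DUKs) and 0.17 (DU6i vs DBA). Its reductase Txnrd1 had 2452 in DU6 and 2083 in DU6i, against 2521 in DUKs and 1675 in DBA.

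Glutathione synthesis was measured near the floor. Gclc, the catalytic subunit of the rate-limiting ligase, had 867 in DU6 and 1004 in DU6i, against 1143 in DUKs and 1039 in DBA on set 2, the floor being 1023. Gss, which adds the last amino acid, had 1481 in DU6 and 1229 in DU6i, against 1164 in DUKs and 1530.0 in DBA. Neither gene reached 2-fold, and with signals this near the floor a 2-fold lower level would not have been detectable.

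All 4 measured metallothionein probe sets had their lowest signal in DU6i, with DU6 only 1.07-fold above it for Mt2. DU6i was also the lowest line for 28.2% of all 3974 probe sets above the floor on every array. Mt1 set 1 had 4925 in DU6 and 847, under the floor, in DU6i, against 6874 in DUKs and 8204 in DBA. Mt1 set 2 (V00835_f_at) had 34197 in DU6 and 13521 in DU6i, against 40080.5 in DUKs and 22476 in DBA. Both sets placed DU6i lowest, and they differed on the highest line, DBA on set 1 and DUKs on set 2. In DU6i vs DBA Mt1 was at least 3.63-fold lower on set 1 and 1.66-fold lower on set 2, and in DU6 vs DUKs the log2 ratios were -0.48 and -0.23.

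Mt2 had 13472 in DU6 and 12634 in DU6i, against 19234 in DUKs and 17941 in DBA, with the sides apart by 1.33-fold between the nearest lines. It was lower by 1.43-fold in DU6 vs DUKs and by 1.42-fold in DU6i vs DBA, a log2 ratio of -0.51 in each. Mt3, first known as a growth inhibitory factor of the brain, had 4549 in DU6 and 1237 in DU6i, against 4474 in DUKs and 3946 in DBA. DU6i alone was low, so that Mt3 was 3.19-fold lower in DU6i than in DBA (log2 -1.67) while DU6 vs DUKs gave 0.02, or -0.11 under both other scalings. With the floor doubled the ratio of Mt3 in DU6i vs DBA was -0.95 in log2, under 2-fold.

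Epididymal markers had their lowest signal in DU6i as well, while other male-tract markers did not follow the metallothioneins. Of 15 listed genes 10 were on the arrays, each above the floor on at least 1, and their summed signal was 118949 in DU6 and 15178 in DU6i, against 133515 in DUKs and 188796 in DBA. Of these, 5 (Svs2, Svs4, Svs5, Svs6 and Defb1) were above the floor in DBA alone and 2 (Sbp and Spink1) in DUKs alone. The other 3, Gpx5, Adam7 and Lcn2, set DU6i apart from the other lines. Gpx5 had 49126 in DU6 and -2544 in DU6i, against 52044 in DUKs and 20753 in DBA. Adam7, a gene of the epididymis, had 19574 in DU6 and 5914 in DU6i, against 23896 in DUKs and 21665 in DBA. The mesothelium and keratin markers (7 of 8 listed on the arrays, all above the floor on at least 1) also had their lowest summed signal in DU6i, with 34919 in DU6 and 22399 in DU6i, against 27482 in DUKs and 48885 in DBA. Of the 6 above the floor on all 4 arrays, 3 (Krt7, Krt8 and Krt18) were at least 2-fold lower in DU6i vs DBA, with a median log2 ratio over the 6 of -1.20. In DU6i vs DBA 6 of the 7 were lower, with Upk3b (log2 -0.50) and Wt1 (log2 -0.77) within 2-fold, and 1 was higher. That 1 was Msln, with 1520 in DU6 and 1536 in DU6i, against 662 in DUKs and 720.5 in DBA, both under the floor. The part of epididymal, mesothelial or keratin-expressing cells in the metallothionein signals was not tested.

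Mt4, Mt3, Mt2 and Mt1 lie next to each other on chromosome 8, and Mt4 was under the floor on all arrays. The promoters of the 3 measured genes are shown because these neighbours had their lowest signal in the same line. They lie on the plus strand at chr8:94178839-94179138 (Mt1), chr8:94172368-94172667 (Mt2) and chr8:94152357-94152656 (Mt3) in RefSeq on GRCm38.p6. Capitals mark matches on either strand to TGCACNC or TGCGCNC, the core of the metal response element through which zinc acts on metallothionein genes.
Mt1: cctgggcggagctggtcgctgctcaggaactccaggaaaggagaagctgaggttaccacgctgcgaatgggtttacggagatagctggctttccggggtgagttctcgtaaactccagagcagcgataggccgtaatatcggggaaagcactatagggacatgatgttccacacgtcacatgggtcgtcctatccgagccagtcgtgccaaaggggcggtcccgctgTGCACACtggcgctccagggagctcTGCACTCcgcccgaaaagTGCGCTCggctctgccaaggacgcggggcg
Mt2: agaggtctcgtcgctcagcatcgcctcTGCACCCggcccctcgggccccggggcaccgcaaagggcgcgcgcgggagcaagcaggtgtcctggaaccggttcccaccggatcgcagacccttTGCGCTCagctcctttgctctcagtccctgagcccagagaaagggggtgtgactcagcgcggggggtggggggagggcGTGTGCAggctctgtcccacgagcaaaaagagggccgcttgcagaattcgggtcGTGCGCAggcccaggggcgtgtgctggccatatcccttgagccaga
Mt3: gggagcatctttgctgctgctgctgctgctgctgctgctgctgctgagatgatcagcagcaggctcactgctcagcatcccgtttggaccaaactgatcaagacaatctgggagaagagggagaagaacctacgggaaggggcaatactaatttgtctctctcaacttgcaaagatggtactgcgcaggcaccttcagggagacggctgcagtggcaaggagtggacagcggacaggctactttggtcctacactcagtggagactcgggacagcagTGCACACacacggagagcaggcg
Mt1 held 3 matches, Mt2 held 4 and Mt3 held 1. At least 1 match was found in 25.7% of all promoters, at least 3 in 1.97% and at least 4 in 0.517%. Among the genes with a promoter, 9 of 30 held a match at a listed start, against 28.2% of all genes. None of the marked letters overlapped the 1 match to the antioxidant response element core in Mt2 or the 1 in Mt3, nor did the 1 metal response element match of Gstm5 overlap its capitals.

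The heme oxygenases went opposite ways in DU6 vs DUKs. Hmox1, the inducible enzyme that macrophages express when they take up heme, had 4787 in DU6 and 1910.0 in DU6i, against 1999 in DUKs and 1267 in DBA on its measured set (m33203_s_at). DU6 alone was high, and DU6i lay just under DUKs, so the sides overlapped. Hmox1 was 2.39-fold higher in DU6 than in DUKs (log2 1.26) and 1.51-fold higher in DU6i than in DBA (log2 0.59). The ratio in DU6i vs DBA depended on the floor, with a log2 ratio of 0 at a doubled floor. Taking log2 of signal plus floor gave 0.36.

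Hmox2, the constitutive enzyme, which is abundant in brain and testis, had 3591 in DU6 and 4049 in DU6i, against 7525 in DUKs and 5237 in DBA. Both DU6 lines lay below both others, by 1.29-fold between the nearest lines. Hmox2 was lower by 2.10-fold in DU6 vs DUKs (log2 -1.07) and by 1.29-fold in DU6i vs DBA (log2 -0.37). As for Gstm5, the germ cell markers had their highest summed signal in DUKs and the next highest in DBA, and their part in the Hmox2 signal was not tested. Doubling the floor, or taking log2 of signal plus floor, left this ratio under 2-fold (-0.74 in each).

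The summed signal of macrophage markers was higher in both DU6 lines than in the other lines. Of 17 listed genes 15 were on the arrays, all above the floor on at least 1, with summed signals of 156987 in DU6 and 154316 in DU6i, against 120852 in DUKs and 95987 in DBA. Of the 13 above the floor on all 4 arrays, 3 were at least 2-fold higher in DU6 vs DUKs, with a median log2 ratio of 0.51, and 5 in DU6i vs DBA, with a median of 0.70. Csf1r, the receptor that defines the lineage, had 13955 in DU6 and 10082 in DU6i, against 6719.7 in DUKs and 6452 in DBA. Not all of the 13 went this way, as 1 (Lyz2) was lower in DU6 vs DUKs and 2 (Fcgr3 and Cd14) in DU6i vs DBA. With the lines paired the other way, 1 (Lyz2) was lower in DU6 vs DBA and 3 (Cd14, Ctss and Fcer1g) in DU6i vs DUKs. Lyz2 had 19244 in DU6 and 41964 in DU6i, against 34013 in DUKs and 26092 in DBA. The part of macrophage content in the Hmox1 and Gsto1 signals was not tested.

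**Figure D4:**
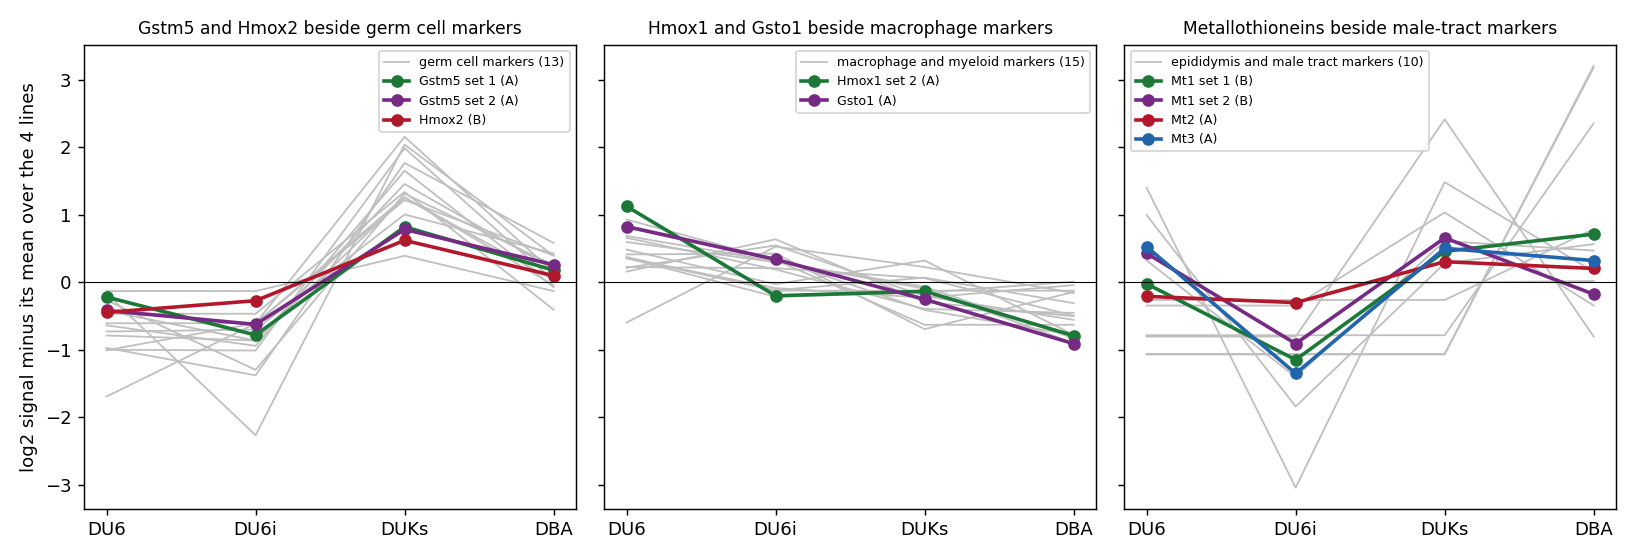
Log2 signal minus its mean over DU6, DU6i, DUKs and DBA, after the floor (1 pool per line): grey lines are germ cell markers (left, 13 genes), macrophage markers (middle, 15 genes) and male-tract markers (right, 10 genes), and coloured lines are the enzymes named in each legend. Gstm5, Hmox2 and the germ cell markers are highest in DUKs, Hmox1 and Gsto1 are lowest in DBA, and the metallothioneins are lowest in DU6i, as are Gpx5, Adam7 and Lcn2 of the male-tract markers.

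Pairing the lines the other way, on the same arrays, shows which line carried a ratio. Sod1 had a log2 ratio of -0.16 in DU6 vs DBA and 1.57 in DU6i vs DUKs, and Sod2 had 0.11 and 1.20, so that both were near level with DBA and above DUKs. Hmox1 had 1.92 in DU6 vs DBA and -0.07 in DU6i vs DUKs, with DU6 alone standing out. Mt3 had 0.21 in DU6 vs DBA and -1.85 in DU6i vs DUKs, with DU6i alone standing out. Both sets of Gstm5 were lower in each of these pairs too, with log2 ratios of -0.40 and -0.68 in DU6 vs DBA and of -1.60 and -1.41 in DU6i vs DUKs.

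Genes around these enzymes were read from pathway lists, with calls given for DU6 vs DUKs and DU6i vs DBA. Of the regulators 6 of 9 were on the arrays with 5 above the floor, and none reached 2-fold in either pair. Nfe2l2, which encodes Nrf2, had 2544 in DU6 and 1858 in DU6i, against 2258 in DUKs and 1998 in DBA. Of 10 thioredoxin partners and selenoproteins on the arrays, 8 were above the floor and none reached 2-fold. Among genes that supply, move or use glutathione, 4 of 19 were on the arrays. The microsomal transferase Mgst2 was at least 2.64-fold higher in DU6 than in DUKs, and Mgst3 was 2.21-fold lower in DU6i than in DBA.

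Of 7 measured genes that supply NADPH, the electron donor of both the glutathione and the thioredoxin system, Me1 (malic enzyme) alone reached 2-fold in these pairs, and Idh1 was 2.03-fold higher when DU6i was set against DUKs. Me1 had 11266 in DU6 and 13028 in DU6i, against 8558 in DUKs and 5942 in DBA, a log2 ratio of 1.13 in DU6i vs DBA. Of the oxidant-producing enzymes 7 were on the arrays, and the NADPH oxidase subunits Cybb, Cyba, Ncf1 and Ncf4 and the peroxidase Mpo were under the floor on all arrays. Xdh, xanthine oxidoreductase, had 7653 in DU6 and 17707 in DU6i, against 22462 in DUKs and 6874 in DBA. The ratio was 2.93-fold lower in DU6 vs DUKs and 2.58-fold higher in DU6i vs DBA, opposite directions in the pairs.

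Iron, heme, metal and carbonyl handling gave few ratios beyond 2-fold. Of 5 genes of heme breakdown and iron storage, Hpx, the heme carrier hemopexin, was lower in DU6i than in DBA by a log2 ratio of -1.78. The ferritin chains Fth1 and Ftl1 stayed within 2-fold in both pairs. Of 4 measured copper and zinc genes, the zinc transporter Slc30a4 was lower in DU6i than in DBA (log2 -1.20), and Ccs, the copper chaperone of Sod1, and Mtf1, the metal-sensing transcription factor, were under the floor on all arrays. Of 11 other detoxifying enzymes, the carbonyl reductase Cbr2 was higher (log2 1.42) and the aldehyde reductase Akr1a1 lower (log2 -1.01) in DU6 than in DUKs, and Pon2 was 2.32-fold higher in DU6i than in DBA.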

How the data were processed

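Pools of epididymal fat RNA from 20 males of each of 4 mouse lines were hybridised to Affymetrix chip A and chip B arrays, 8 in all. The deposited intensity values are linear and were made by the authors with Data Mining Tool 1.2 and Microarray Suite 4.0.1, per the labels, and every array was scaled on the whole of its probe sets. Between 12.8% and 30.5% of the values per array are below 0. No detection call was used. Pooling hides differences between animals, and scaling to 1 mean does not equalise the range of signals.

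Genes were named through the platform annotation; 110 control probe sets were left out, as was 1 probe set with several symbols. Before log2 was taken, lower signals were raised to the floor, and a probe set entered a pair when at least 1 of its 2 signals was above the floor. Ratios against the floor are written "at least". A call at 2-fold is a rule of size. Arrays were compared only within a chip. limma 3.58.1 in R 4.3.3 (lmFit, eBayes, two-sided) was fitted per chip on probe sets that cleared the floor on 2 or more of 4 arrays, with Benjamini-Hochberg adjustment over both chips, and tested on simulated data. The SD of a ratio came from genes with exactly 2 probe sets. Tables and figures were made with Python 3.11.15, pandas 2.3.3 and matplotlib 3.10.9.

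The members and lists were chosen with earlier results of these data known. Signals in all lines are printed for Gsto1, Sod1, Sod2 and Hmox1, for members at 2-fold in either pair or apart between the sides by 1.5-fold, and for genes with several measured probe sets; for other members they are printed where they show a pattern, chosen after their values were seen. In marker and pathway lists the brightest probe set of a gene was used. Alternatives changed the scaling, the floor, the filter, the variance prior, the lines and the probe sets per gene.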

Additional observations from a re-analysis of the deposited data

Results flagged for a closer look

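In 5 probe sets the ratios in DU6 vs DUKs and DU6i vs DBA had opposite signs and both were larger than the SD of a single ratio. The difference between the pairs was not tested, since each line has 1 pool. The log2 ratio in DU6 vs DUKs minus that in DU6i vs DBA was -1.61 for Gpx3 on chip A, -1.59 for Gpx4, -1.2 for Gstm1, 1.12 for Prdx2 set 1 and -1.75 for Sod3 on chip A. Such opposite ratios were found in 14.7% of the 34 enzyme probe sets and in 16.3% of all 5085 probe sets measured in both pairs. The first 2, Gstm1 and Sod3 have DU6 lowest and DU6i highest. The 99th percentile of chip A and the MB share of its pyruvate carboxylase control have the same lowest and highest line. The other probe set of Gpx3, on chip B, had ratios of -0.54 and 0.13, and that of Sod3 had 0.17 and 2.10. The other set of Prdx2 had 0.22 and -0.50.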

How the results depend on the processing

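The median log2 ratio of the enzymes moved by less than the SD of a ratio under every alternative run, and of 185 recomputed ratios of named probe sets 171 did so and 14 moved further. Of the 185, 3 changed sign, Gstz1 in DU6 vs DUKs (0.49 after quantile normalisation) and Mt3 in DU6 vs DUKs (-0.11 after quantile normalisation and after rescaling to 1 median), and 0 of these were at 2-fold. Counts at 2-fold were less stable. Quantile normalisation gave 2 higher and 2 lower in DU6 vs DUKs and 2 higher in DU6i vs DBA, and rescaling to 1 median gave 2 higher in DU6 vs DUKs and 2 lower with the sides apart. A doubled floor gave 0 lower in DU6i vs DBA. Taking log2 of signal plus floor gave 1 higher and 1 lower in DU6 vs DUKs and 0 in each direction with the sides apart. With 1 probe set per gene 0 were lower with the sides apart, since the Gstm5 set kept has the smaller gap. Ratios present at 2-fold in all 5 settings were those of Gstm5 set 2 and Sod1 in DU6 vs DUKs and Sod3 set 1 in DU6i vs DBA. limma called 0 enzymes under each alternative, including without each line in turn (0 to 0), with 1 to 4 at an unadjusted p under 0.05; without a filter on low signals it called 4 probe sets, none an enzyme. No paired analysis was possible because each line has 1 pool. The causes were not tested.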

Other observations

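A further chip A probe set carries the symbols Gm21399 and Prdx1 together and was not counted. It had 22115 in DU6 and 17978 in DU6i, against 23804 in DUKs and 26399 in DBA, the same lowest and highest line as Prdx2. The counted set of Prdx1 also had DBA highest but had DUKs lowest, with 33184 in DUKs and 40650 in DU6i. The sets thus disagreed on DU6i vs DUKs.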
